A study of Salmo salar with 18 samples.

Results

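The comparison described here set all 12 warmed Atlantic salmon (*Salmo salar*) against the 6 fish kept at 12 °C, so that the change in liver transcripts at 20 °C was averaged over both oxygen levels at which the fish had been warmed. The members were the 18 liver arrays of the series, 18 of 18: 6 from the Control group (CT), 6 from the Warm & Normoxic group (WN) and 6 from the Warm & Hypoxic group (WH). CT fish stayed at 12 °C and 100% air saturation. WN fish were warmed by 1 °C per week to 20 °C at 100% air saturation. WH fish were first brought to 70% air saturation, held there for 2 weeks and then warmed on the same schedule at 70%. All were juveniles (post-smolts) in seawater, fed to satiation, and the warmed fish were sampled 3 days after 20 °C was reached. The treatments were given to 6 tanks, 2 per group, and 3 fish per tank were measured, so the p-values over fish treat tank-mates as independent fish.

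Each array carried 2 dyes. Cy5 marked the RNA of 1 fish and Cy3 marked a reference pool made of equal parts of all 18 RNAs, with no dye swap. A value below is the log2 ratio of the fish to that pool, after background correction and within-array normalization, and a difference is the mean of the WN and WH group means minus the CT mean. A probe was called when its limma p-value, adjusted over all 23846 probes tested, was under 0.05. Bulk liver was measured, so fewer cells of a type and less RNA per cell cannot be told apart.

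Salmon are ectotherms, and their liver takes the temperature of the water. Warming unfolds proteins, and cells meet this with heat shock proteins: chaperones of the cytosol (the HSP90, HSP70 and HSP40 families), of the mitochondria (HSP60) and of the endoplasmic reticulum, where secreted proteins fold. Proteins that cannot be refolded are tagged with ubiquitin and degraded by the proteasome. The liver also makes most plasma proteins and detoxifies foreign compounds, and its mitochondria burn fatty acids and amino acids. The salmonid genome was duplicated, and many genes are kept as close copies that 1 probe may not tell apart.

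The study designed PCR amplicons for some of the probes' genes. Of 41 amplicons in its primer table, 31 were bounded by both primers and 16 of these had a reading frame free of stops and a called probe. The pair with the largest measured rise and the pair with the largest measured fall on the array are shown, 5′ to 3′ with the primer sites in capitals, as the stretches of transcript through which these genes can be looked up. They are not the array's probe sequences, and PCR measurements were not used here.
serpinh1: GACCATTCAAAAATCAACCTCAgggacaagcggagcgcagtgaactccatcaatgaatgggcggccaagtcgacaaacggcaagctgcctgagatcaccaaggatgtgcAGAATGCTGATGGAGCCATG
igfbp2b1: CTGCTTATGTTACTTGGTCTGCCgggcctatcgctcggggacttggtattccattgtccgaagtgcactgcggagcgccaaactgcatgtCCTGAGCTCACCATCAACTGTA
cyp1a1: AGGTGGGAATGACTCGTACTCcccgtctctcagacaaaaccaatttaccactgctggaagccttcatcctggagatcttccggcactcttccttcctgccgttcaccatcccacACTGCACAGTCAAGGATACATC
ctsh: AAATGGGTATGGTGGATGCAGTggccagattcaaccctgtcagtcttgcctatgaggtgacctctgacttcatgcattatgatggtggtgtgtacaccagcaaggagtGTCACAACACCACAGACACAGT
The *serpinh1* amplicon (129 bases) codes for part of HSP47, the chaperone of collagen. No CT array was above background on its probe C236R132. In the Cy5 channel alone that probe was 4.81-fold higher in warmed fish. This is a rough lower bound, with CT values raised to no less than the dimmest detected spot of their array. The *igfbp2b1* amplicon (112 bases) belongs to a binding protein of insulin-like growth factors, whose probe C206R122 was 2.23 higher. The *cyp1a1* amplicon (136 bases) belongs to the cytochrome P450 that oxidizes aromatic pollutants, and its probe C161R028 was 1.67 lower on the log2 scale, a 3.18-fold fall. The *ctsh* amplicon (130 bases) belongs to cathepsin H, a lysosomal protease, and its probe C194R156 was 2.06-fold lower.

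Between warmed and CT fish, 1804 of the 23846 probes tested differed (7.57%). Of these, 813 rose (3.41% of probes tested) and 991 fell (4.16%). With median centring in place of loess the share of rises among the calls went from 45.1% to 33.2%, over 913 calls. It was 53.6% with scale normalization between arrays (3011 calls) and 24.5% in the Cy5 channel alone (1112 calls). The median difference over all probes tested was 0.02. Among the calls, 674 differed by more than 1 on the log2 scale (260 higher, 414 lower), and 28 rises and 35 falls exceeded 2. The averaged contrast called more probes than WN v CT (1179, 4.94%) or WH v CT (1226, 5.14%), and WH v WN called 0 (0%), with 1377 probes at an unadjusted p under 0.05 (5.77%). All of these contrasts come from 1 fit, the first 3 share the 6 CT arrays, and the averaged difference is by construction the mean of the WN and WH differences.

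Gene names came from the readable part of the study's own list of probes that differed between WN and CT, and from its primer table. Names were therefore held for few of the probes (1423 of those tested), they were chosen on 12 of these same 18 arrays, and they favour probes that moved: 406 of the 1423 were higher in warmed fish (28.5%) and 463 lower (32.5%). A gene list's count below is to be read against those shares and is not independent evidence of its direction. The readable part also misses the strongest falls. Of 73 probes that rose by more than 1.5 on the log2 scale, 63 had a name, against 7 of 112 that fell by more than 1.5.

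**Figure D1:**
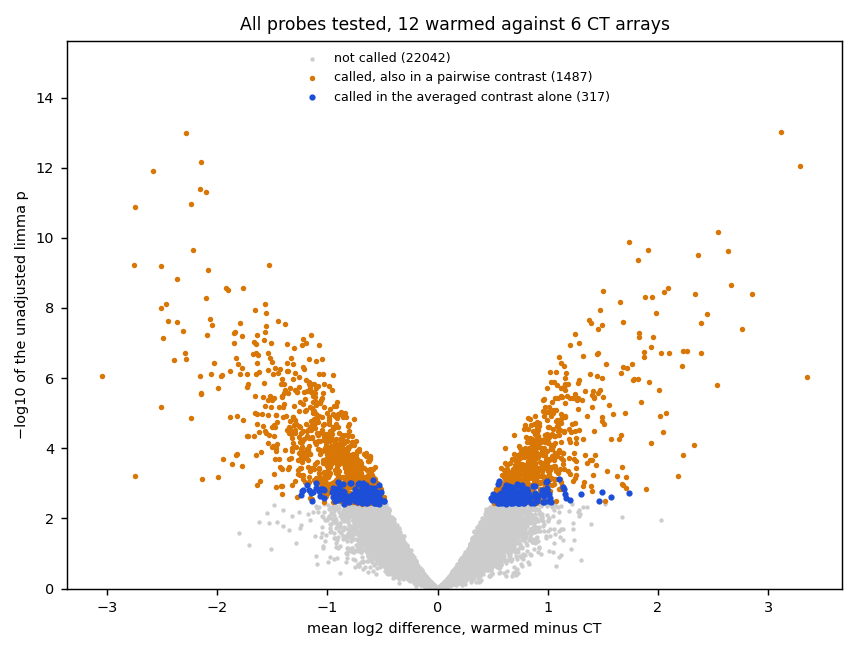
Each point is a probe: its mean log2 difference (warmed minus CT, horizontal) against the negative log10 of its unadjusted limma p (vertical). The 317 probes called in the averaged contrast and in neither pairwise contrast (blue) lie at the lower edge of the called probes, and the largest differences, up to 3.35, belong to probes called in a pairwise contrast as well (orange).

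The clearest rises were those in which all 12 warmed fish lay above all 6 CT fish. Among 18651 probes with a value on every array, 332 had warmed and CT fish that did not overlap (1.78%), 138 with warmed fish higher (0.74%) and 194 lower (1.04%), and 329 of the 332 were called. First among the named rises stood *serpinh1*, the endoplasmic reticulum chaperone HSP47 that folds collagen. On probe C205R085 its log2 ratio ran from -3.63 to -2.04 in CT fish (median -2.90) and from -0.42 to 1.07 in warmed fish (median 0.38). The groups were far apart on this probe. The mean difference was 3.29 ± 0.23 (SE, n = 12 and 6), a 9.80-fold rise (limma adjusted p = 5.33e-09). It was 3.09 in WN fish and 3.49 in WH fish. All 5 *serpinh1* probes rose, with measured differences of 2.64 to 3.29. On C236R132, known only as a rough bound, 12 of 12 warmed arrays were above background.

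*dhrs13*, a short-chain dehydrogenase/reductase, ran from -3.45 to -1.48 in CT fish (median -2.60) and from -0.63 to 1.28 in warmed fish (median 0.50) on probe C168R126. The groups did not overlap, and the difference of 2.85 ± 0.31 was a 7.23-fold rise (limma adjusted p = 3.23e-06). That probe was above background on only 4 of 6 CT arrays, and the other two *dhrs13* probes, measured alongside it, rose by 2.34 and 2.37. LOC106570920, annotated as similar to the methylesterase ICMEL1, ran from -2.91 to -1.84 in CT fish (median -2.35) and from -0.64 to 0.78 in warmed fish (median 0.25). Its difference was 2.55 ± 0.22 (5.85-fold, adjusted p = 1.59e-07), with no overlap.

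*mpdz* encodes a scaffold protein of cell junctions with many PDZ domains. Its ratio ran from -3.23 to -2.0 in CT fish (median -2.31) and from -1.53 to 0.74 in warmed fish (median 0.16), and the difference was 2.44 ± 0.28 (5.43-fold, adjusted p = 8.19e-06). WN fish rose by 2.92 and WH fish by 1.96, and this gap of -0.97 (WH minus WN) had a 95% interval from -1.64 to -0.29 before adjustment and an adjusted p of 0.85. LOC106613965, similar to the flavin monooxygenase FMO5, ran from -2.92 to -2.02 in CT fish (median -2.22) and from -1.27 to 1.26 in warmed fish (median -0.04). It rose 5.26-fold (adjusted p = 4.98e-05). The kinase gene *sgk2* ran from -2.67 to -1.78 in CT fish (median -2.15) and from -1.05 to 1.13 in warmed fish (median 0.10). It rose 5.24-fold (adjusted p = 1.26e-05).

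*dnaja4*, an HSP40 partner of the HSP70 chaperones, ran from -3.25 to -1.20 in CT fish (median -1.47) and from -0.42 to 1.58 in warmed fish (median 0.27). It rose 4.67-fold (adjusted p = 9.06e-05) and was above background on 4 of 6 CT arrays. *gimap7*, a GTPase of immune cells, ran from -2.79 to -0.44 in CT fish (median -1.76) and from -0.28 to 1.27 in warmed fish (median 0.37) on probe C180R027. It rose 4.28-fold (adjusted p = 4.98e-05), although its groups almost touched. An unnamed probe, C105R014, lay beyond *gimap7* at 2.23 (4.69-fold, adjusted p = 4.61e-05).

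The largest rise of all, 3.35 (10.2-fold, adjusted p = 0.000149), was that of LOC106585653 on probe C071R068, which the study's primer table assigns to the C1q-like gene *c1ql2*. It had a value on 5 CT arrays, from -4.38 to -1.42, and on 11 warmed arrays, from -1.14 to 2.50, and so fell outside the set with 18 values. The other probe named *c1ql2*, C186R078, fell by 0.68 (adjusted p = 0.0205), so the probes of that name moved in opposite directions. For *igfbp2b1* the average joined unlike groups. All 6 CT fish lay between -3.28 and -1.80, and 5 of 6 WN fish lay between 0.48 and 1.72 while the sixth was at -1.35. WH fish spread from -2.80 to 1.28, from within the CT range to within the WN range. The averaged rise of 2.23 (adjusted p = 0.0055) was made of 3.22 in WN fish (adjusted p = 0.00129) and 1.23 in WH fish (adjusted p = 0.246).

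**Figure D2:**
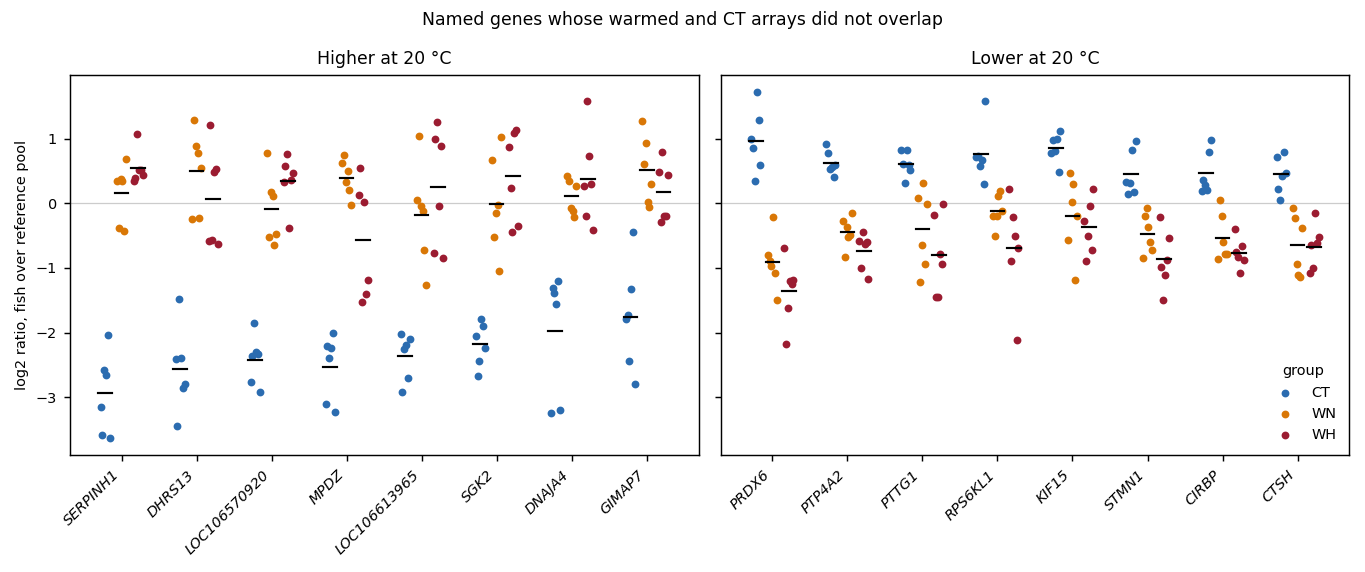
Log2 ratio of fish to reference pool (vertical) for the 16 named genes of the non-overlapping set (horizontal), 1 point per fish, with CT in blue, WN in orange and WH in red and bars at the group means. The 6 CT fish of *serpinh1* lie between -3.63 and -2.04 and the 12 warmed fish between -0.42 and 1.07.

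Among the named falls without overlap and with a value on every array, *prdx6* was by far the largest. It encodes a peroxiredoxin, an enzyme that reduces peroxides of lipids. Its ratio ran from 0.35 to 1.72 in CT fish (median 0.92) and from -2.18 to -0.22 in warmed fish (median -1.13), with no warmed fish above 0. The difference was -2.10 ± 0.23, a 4.28-fold fall (adjusted p = 3.65e-06). Unnamed probes fell further: C236R084 by 3.04 (8.24-fold, adjusted p = 0.000136) and C151R108 by 2.75 (6.74-fold, adjusted p = 7.84e-07).

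The next 7 named genes of this kind fell by 1.11 to 1.22 on the log2 scale. *ptp4a2*, a phosphatase of the PRL family, ran from 0.41 to 0.92 in CT fish and from -1.17 to -0.16 in warmed fish (difference -1.22, adjusted p = 2.54e-05). *cirbp*, the cold-inducible RNA-binding protein, ran from 0.18 to 0.98 in CT fish (median 0.33) and from -1.08 to 0.05 in warmed fish (median -0.77), a 2.17-fold fall (adjusted p = 0.000289). Its other probe fell by 0.71. *ctsh* fell by 1.11 on probe C031R123, where CT fish lay between 0.06 and 0.79 and warmed fish between -1.15 and -0.08.

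A trio of the falls belonged to genes of dividing cells. *pttg1* (securin, which holds sister chromatids together until anaphase) fell by 1.21, *kif15* (a kinesin motor of the spindle) by 1.14, and *stmn1* (stathmin, which takes microtubules apart) by 1.12 on probe C181R051. CT fish lay between 0.32 and 0.83 for *pttg1* and warmed fish between -1.45 and 0.31, so the groups touched. For *kif15* the CT range was 0.49 to 1.12 and the warmed range -1.18 to 0.46. *rps6kl1*, a kinase-like gene, fell by 1.17, with CT fish between 0.30 and 1.58 and warmed fish between -2.12 and 0.22. The stathmin probes were not of 1 direction: C001R139 fell by 1.47 and C169R101 rose by 0.95 (adjusted p = 0.0121). Of 207 genes with several named probes, 9 had called probes in both directions and 99 had at least 2 called probes, all in 1 direction.

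These differences were also seen within slides. Slides were read from the sample titles, and by these slide E held 4 warmed fish and no CT fish. Slides A, B, C and D each held CT and warmed fish. They held 2 CT and 1 warmed fish, 1 and 2, 2 and 2, and 1 and 3. Within them, *serpinh1* C205R085 was 3.24, 2.50, 3.67 and 3.69 higher in warmed fish, and the *prdx6* differences were -2.15, -2.99, -1.81 and -1.45. *gimap7* was the exception among the rises, at 2.83, 0.20, 2.99 and 2.10, since the CT fish of slide B was its highest. Over all 1804 calls, 96.8% to 99.3% of the probes measured on a slide differed there in the called direction. These probes were called on the same fish, so the shares describe how even the differences were.

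**Figure D3:**
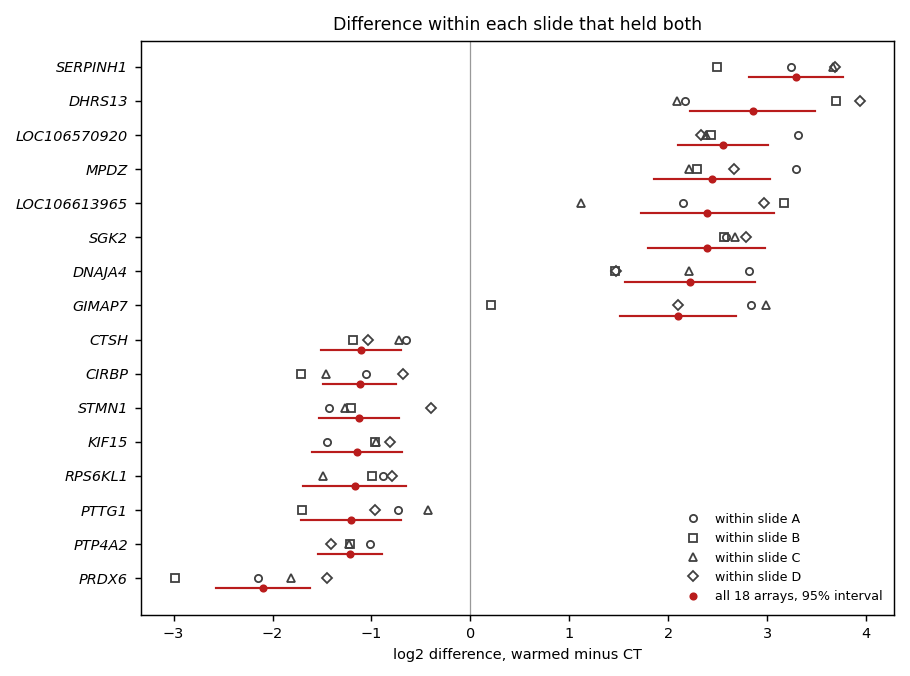
Warmed minus CT (log2, horizontal) for the 16 genes of the non-overlapping set, over all 18 arrays with a 95% interval before adjustment (red) and within each of slides A to D (open symbols). Every within-slide difference has the sign of the whole, and *gimap7* on slide B (0.20) is the closest to 0 among the rises.

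The shift of an array was the median over the called probes, in their called direction, from the mean of the CT arrays other than itself. CT arrays lay between -0.10 and 0.13, WN arrays between 0.80 (WN-4) and 0.95, and WH arrays between 0.81 (WH-4) and 0.99 (WH-3). These probes were called on the same fish, which favours even differences, so the values are a description. The fish within a group varied by a median SD of 0.40 in CT and 0.44 in the warmed groups.

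Chaperones of the HSP90 and HSP70 families were mostly higher in warmed fish. Of 14 probes for HSP90 (cytosolic and endoplasmic reticulum forms), its co-chaperones and its client *hsf1*, 10 rose and none fell (71.4% called, median 1.11, against a median of -0.53 for all named probes and 0.02 for all probes tested). *hsp90aa1*, the inducible HSP90, ran from -2.50 to -1.02 in CT fish (median -1.63) and from -1.14 to 0.62 in warmed fish (median 0.26). It rose 3.18-fold (adjusted p = 0.000128), and 1 warmed fish reached into the CT range. *hsp90ab1*, the more constant form, rose by 0.98 (adjusted p = 0.00226). The co-chaperones *sugt1* (4 of 4 probes, up to 1.15), *unc45a* (1.07), which assists myosin folding, and *ttc4* (1.03) rose too. With CT tank 3 or CT tank 4 left out, 5 of the 14 were called, and 5 in the Cy5 channel alone, all rises. Of the 12 probes for HSP70 and HSP40 proteins, 9 rose and 3 fell (100% called, against 61.1% of all named probes, median 1.14).

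Both probes named *hspa8*, which the primer table lists as *hsp70*, rose. On C007R083 the ratio ran from -2.77 to -0.46 in CT fish (median -1.42) and from -0.79 to 0.97 in warmed fish (median 0.49), a 3.53-fold rise (adjusted p = 0.000159). Beside *dnaja4*, the HSP40 genes *dnaja1* (1.12) and *dnajc12* (1.18) rose. The 3 falls were *hspa14* (-0.81), an HSP70 that works at the ribosome, and both probes of *dnajc8* (-0.71 and -0.61), a J protein of the spliceosome. Probes for *hsf1*, the transcription factor that switches on heat shock genes, were 1.10 to 1.36 higher in 3 of 3, but none passed the test.

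The list of chaperonins and small heat shock proteins divided, but no small heat shock protein had a named probe in it. Its probes were for chaperonins, prefoldins and clusterin. Of 11 probes, 6 rose and 3 fell (81.8% called, against 61.1% of all named probes, median 0.98). The rises were all 5 probes of *clu*, the secreted chaperone clusterin (0.98 to 2.27), and *cct3*, a subunit of the cytosolic chaperonin (1.14). *clu* C082R076 ran from -2.54 to -0.21 in CT fish (median -2.09) and from 0.14 to 1.39 in warmed fish (median 0.47), a 4.81-fold rise without overlap (adjusted p = 4.75e-05). The falls were both probes of *hspd1*, the mitochondrial HSP60 (-1.08 and -0.68), and *pfdn4*, a prefoldin subunit (-0.66). *hspd1* C126R097 ran from 0.17 to 0.80 in CT fish (median 0.58) and from -1.22 to -0.21 in warmed fish (median -0.53, adjusted p = 0.000216), so its groups did not overlap. Its partner *hspe1* was at -0.45 and did not pass the test.

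In the endoplasmic reticulum list (20 probes) 11 rose and 3 fell (70% called, against 61.1% of all named probes, median 0.94). Beside *serpinh1*, which supplies 5 of the 11, the rises included *herpud2* (1.70), of the pathway that returns misfolded proteins to the cytosol, *atf3* (1.21), a stress transcription factor, and *creld2* (1.07). *herpud2* ran from -2.48 to -0.68 in CT fish and from -0.87 to 0.96 in warmed fish, a 3.25-fold rise (adjusted p = 0.00081), and its groups overlapped slightly. Both probes of *fkbp10*, another helper of collagen folding, fell (-0.91 and -0.83), in contrast to *serpinh1*, and so did *ssr4* (-0.77), a subunit of the translocon-associated complex. *hsp90b1*, the HSP90 of this compartment, rose by 1.04. The protein disulphide isomerase *p4hb* (-0.59 and -0.52) and calreticulin, *calr* (-0.62), did not pass the test. Collagen itself, *col1a1*, had 1 named probe, which fell by 0.80 (adjusted p = 0.0195).

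Every called proteasome probe was a fall. The list held 69 probes of 25 genes, and 44 probes of 20 genes fell (63.8% called, median -0.66). Of all named probes 61.1% were called and 32.5% fell, with a median of -0.53. The share called was thus close to that of all named probes. By part of the particle, 22 of 28 probes of the alpha ring fell, 8 of 14 of the beta ring, 3 of 6 of the ATPases of the regulatory particle, 8 of 11 of its other subunits, and 3 of 10 of the activator and assembly factors. *psma6* of the alpha ring ran from -0.06 to 0.76 in CT fish (median 0.54) and from -0.86 to 0.05 in warmed fish (median -0.50) on probe C088R123, a 1.93-fold fall (adjusted p = 0.000846), and 7 of its 10 probes were called. *psmd3*, a scaffold of the regulatory lid, fell 2.00-fold and *psme2*, a subunit of the interferon-inducible activator, 2.16-fold (adjusted p = 0.00302), while none of the 5 probes of its partner *psme1* passed the test (-0.57 to -0.42). These calls depended on the fit. On 6 tank means 13 of the 69 probes fell by the same test, with slide as a block 21 and with median centring 10. Without the fish of CT tank 4 only 4 fell. The list's median lay between -0.57 and -0.87 over the alternatives tried. The probes were named because they differed on these same arrays, which favours a steady median, so it is no independent evidence.

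**Figure D4:**
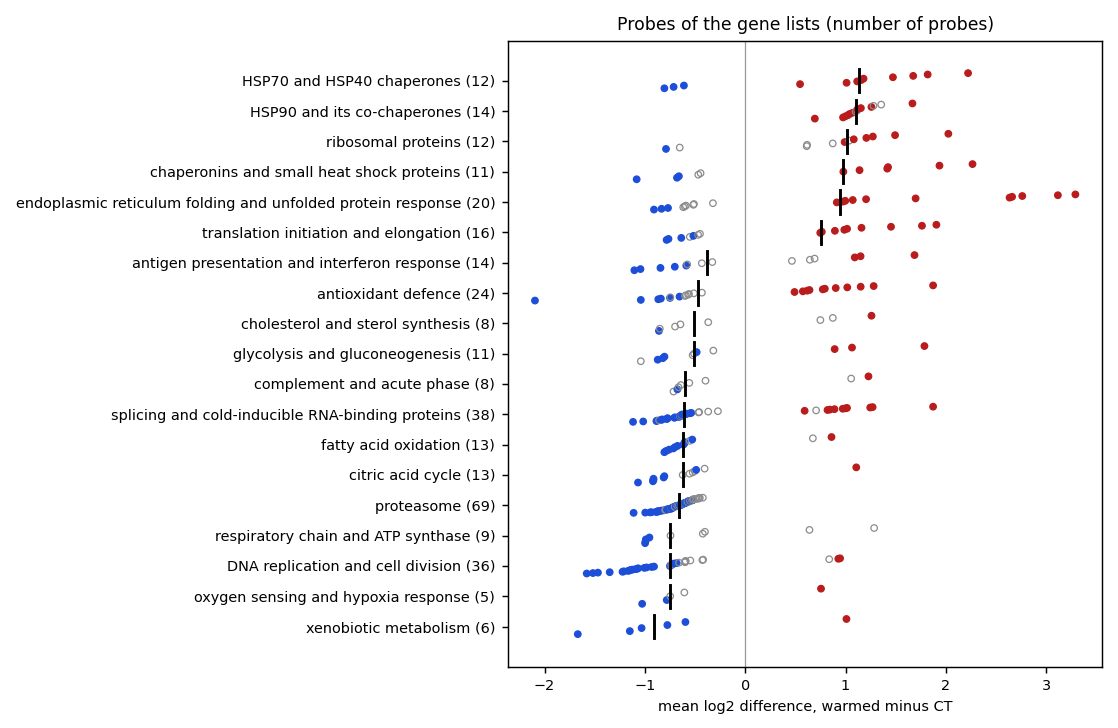
Mean log2 difference (warmed minus CT, horizontal) of each probe of the gene lists, with called rises in red, called falls in blue, probes not called as open circles and list medians as bars. HSP90 and HSP70 chaperones have medians of 1.11 and 1.14 and the proteasome -0.66, and the gap around 0 comes from the naming of probes by a list of changed probes.

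Genes of DNA replication and cell division mostly fell: 22 of 36 probes, with 2 rises (66.7% called, median -0.75). The shares for all named probes were 61.1% called and 32.5% lower, with a median of -0.53. *birc5* (survivin, which guards chromosome segregation) ran from 0.27 to 0.62 in CT fish (median 0.35) and from -2.68 to 0.55 in warmed fish (median -1.18). It fell 2.99-fold (adjusted p = 0.000374), and its warmed fish were far more spread than its CT fish. *kif2c*, a kinesin that corrects chromosome attachment, fell 2.87-fold and the mitotic kinase *pbk* 2.55-fold. Each of these fell less in WN (-0.99, -0.96 and -0.95) than in WH fish (-2.17, -2.08 and -1.76), but no probe passed the test of WH against WN. All 7 probes of *dut*, which keeps uracil out of DNA, fell (-1.22 to -0.75), as did all 3 of *pcna*, the sliding clamp of DNA polymerase (-0.74 to -0.68). The rises were the third stathmin probe and *tacc3* (0.93, adjusted p = 0.044), a spindle protein. With median centring 14 of the 36 probes fell and none rose, and without the fish of CT tank 4 only 8 fell and none rose.

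The RNA machinery moved both ways. In the list of splicing and cold-inducible RNA-binding proteins (38 probes), 10 rose and 20 fell (78.9% called, 61.1% over all named probes, median -0.61). Of 15 probes for the Sm and LSm proteins, the rings around spliceosomal RNAs, 13 fell and 1 rose, and *snrpd2* alone gave 8 falls of 8 probes (-0.89 to -0.59). Of 9 probes for SR proteins and their kinase, which choose splice sites, 7 rose and 1 fell. *srpk1*, the kinase, ran from -2.21 to -1.04 in CT fish (median -1.47) and from -0.44 to 1.35 in warmed fish (median 0.14), a 3.66-fold rise without overlap (adjusted p = 5.83e-05). *sfrs1* rose by 1.27, *srsf6* by 1.25 and all 3 probes of *srsf2* by 0.59 to 1.00, while *srsf3* fell by 0.65. Over the whole list of 38, 5 rose and 3 fell with median centring, and 4 rose and 1 fell without the fish of CT tank 4. In the latter fit 3 of the 9 SR probes rose, and in both none of the 15 Sm and LSm probes fell by the test.

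Of 12 ribosomal protein probes, 6 rose and 1 fell (58.3% called, below the 61.1% of all named probes, median 1.01). *rps2* ran from -2.72 to -1.04 in CT fish (median -1.74) and from -0.97 to 0.96 in warmed fish (median 0.32), a 4.07-fold rise whose groups almost touched (adjusted p = 4.99e-05). *rpl32* rose by 1.49 and *rps18* by 1.27, and *rps23* fell by 0.79. Of 16 probes for initiation and elongation factors, 9 rose and 4 fell (81.2% called, median 0.76). *eif4a2*, a helicase that opens mRNA for the ribosome, ran from -1.93 to -1.07 in CT fish (median -1.68) and from -0.09 to 0.88 in warmed fish (median 0.30). It rose 3.75-fold without overlap (adjusted p = 4.06e-07). The poly(A)-binding proteins *pabpc4* (1.45) and *pabpc1* (1.16) and the elongation factor *eef2* (1.02) rose with it. Its relative *eif4a3*, of the exon junction complex, fell on both probes (-0.77 and -0.64). In the Cy5 channel alone 4 of the 16 probes rose, and with median centring none fell.

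Genes of mitochondrial metabolism fell more often than they rose. All named probes leaned the same way, with 32.5% lower, 28.5% higher and a median of -0.53 (61.1% called). Of 13 probes for fatty acid oxidation, 10 fell and 1 rose (84.6% called, median -0.62). *hadha*, of the trifunctional protein, ran from 0.13 to 0.92 in CT fish and from -0.77 to -0.14 in warmed fish, a 1.64-fold fall without overlap (adjusted p = 0.00432). *etfb* (-0.81) and *slc25a20* (-0.76), the carnitine carrier, fell too, and *crat*, carnitine acetyltransferase, rose by 0.86. On tank means 2 of the 13 fell, without the fish of CT tank 4 only 1, and with median centring none. Of 13 citric acid cycle probes, 7 fell and 1 rose (61.5% called, median -0.62), against 2 falls and 1 rise with median centring and again without the fish of CT tank 4. Succinate dehydrogenase was divided between its subunits. *sdha*, which binds the substrate, ran from -1.24 to -0.74 in CT fish and from -0.47 to 0.43 in warmed fish, a 2.15-fold rise without overlap (adjusted p = 5.93e-05). The membrane anchors fell, *sdhc* by 0.91 and 0.49 on its probes and *sdhd* by 0.81. *idh2* fell by 0.92 and *suclg1* by 0.92.

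Of 9 probes of the respiratory chain and ATP synthase, 4 fell and none rose (44.4% called, median -0.75). That share is below the 61.1% of all named probes. Among the falls were *atp5g3* (-1.0), *cox7a2* (-0.96) and *ndufb1* (-0.99). *ndufa4* (1.29) and *ndufa1* (0.64) lay higher without passing the test. With median centring, and again without the fish of CT tank 4, 2 of the 9 fell. In glycolysis and gluconeogenesis (11 probes, 3 rises, 4 falls, 63.6% called) *gapdh* ran from -1.96 to -1.08 in CT fish (median -1.66) and from -0.64 to 1.64 in warmed fish (median 0.25), a 3.45-fold rise (adjusted p = 0.000157). *pdk3*, which switches pyruvate dehydrogenase off, rose by 1.06. The glucose carrier *slc2a2* (-0.82), *pfkfb2* (-0.87), *hkdc1* (-0.81) and *pck1* (-0.48), the entry enzyme of gluconeogenesis, fell. In the sterol list (8 probes, 1 rise, 1 fall, 25% called) *insig1*, which holds back sterol synthesis, rose by 1.26.

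Of 24 antioxidant probes, 11 rose and 6 fell (70.8% called, against 61.1% of all named probes, median -0.47). With median centring, as without the fish of CT tank 4, 5 rose and 2 fell. Among the rises were the selenoprotein genes *sepp1b* (1.87), ranging from -2.36 to -1.06 in CT fish and from -0.76 to 0.95 in warmed fish (adjusted p = 4.97e-05), and *sepw1* (3 of 3 probes, 1.02 to 1.28). The transcription factors of the antioxidant response, *nfe2l2* (0.90) and *nfe2l1* (0.79), rose, as did thioredoxin, *txn* (0.77), and catalase, *cat* (0.49, adjusted p = 0.0421). Both *txn* and *cat* passed in the averaged contrast alone. They lost the call in 15 of 43 and 28 of 42 alternatives. Among the falls were the peroxiredoxins *prdx6*, *prdx1* (-1.04 and -0.87) and *prdx5* (-0.75), and the selenoprotein gene *selenoh* (-0.66). Among genes of oxygen sensing (5 probes, 1 rise, 2 falls), *hif1a*, whose protein is stabilized when oxygen is low, fell by 0.78 (adjusted p = 0.0055), with differences of -0.62 in WN and -0.95 in WH fish. Of the prolyl hydroxylases that mark it for degradation, *egln1* rose by 0.76 and *egln2* fell by 1.03.

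All 6 probes for xenobiotic metabolism were called (1 rise, 5 falls, median -0.91), against 61.1% of all named probes. With median centring 2 of the 6 fell and none rose. Without the fish of CT tank 4, 3 fell and none rose. *cyp1a1* C161R028 ran from 0.69 to 1.28 in CT fish (median 0.91) and from -1.58 to 0.11 in warmed fish (median -0.79), a 3.18-fold fall without overlap (adjusted p = 3.12e-05). CT-4 had no value on that probe. The export pump *abcg2* fell by 1.15, *cyp3a4* by 0.78 and *ugt2a1* by 0.60, and *cyp2a6* rose by 1.01. The *ugt2a1* probe passed in the averaged contrast alone.

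Immune genes went both ways, and the antigen and complement lists had no larger share called than the 61.1% of all named probes. In the antigen presentation and interferon list (14 probes, 3 rises, 5 falls, 57.1% called), *gbp4*, a GTPase induced by interferon, ran from -2.49 to -0.92 in CT fish and from -0.17 to 0.55 in warmed fish, a 3.22-fold rise without overlap (adjusted p = 1.26e-05), and *irf2* rose by 1.15. *ctsh*, *ifi30* (-0.70) and *tapbpl* (-0.85), which process and load antigen, fell, and none of the list fell by the test without the fish of CT tank 4. Of the 8 complement and acute phase probes (25% called), *saa1* rose by 1.23 and the other call was the fall of *c1ql2* C186R078.

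Of 12 leukocyte marker probes, 6 rose and 2 fell. The 6 rises (*gimap4*, *gimap7* on both probes, *il8*, *nckap1l*, and *mpo*, which the primer table lists as *epx*) were all the probes of those genes. Their mean log2 ratio lay between -1.68 and -0.71 in CT fish and between -0.09 and 1.01 in warmed fish. These 6 are the called rises of the list, so the gap between their means follows from that choice. The 6 immunoglobulin probes went the other way, with 2 falls and no rise, and means between -0.21 and 0.90 in CT fish and between -0.88 and 0.28 in warmed fish. Over all 12 the means lay between -0.65 and -0.12 in CT and between -0.46 and 0.42 in warmed fish. Of the erythrocyte markers, *gypc* (1.28) and *gfi1b* (0.89) rose and the globin *hba4* fell by 1.01, and the list's means overlapped (-0.37 to 0.12 in CT, -0.63 to 0.29 in warmed fish). For *hba4* the warmed minus CT difference was -0.50 in Cy5 alone and 0.51 in the Cy3 reference. Its ratio thus fell as much through a higher reference signal as through a lower fish signal. Both probes of *mylpf*, a skeletal muscle marker, rose (0.97 and 0.75). How far other cells or blood in the samples contributed to the differences was not tested.

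The tissue label could be checked only in part, since 3 of 27 hepatocyte markers had a named probe. All 3, *tf2* (transferrin), *apoh* and *fabp1*, were above background in the fish channel on 6 of 6 CT and 12 of 12 warmed arrays. *apoh* rose by 1.51 (adjusted p = 0.00137) and *fabp1* by 0.98, and *tf2* was at -0.59 and did not pass the test.

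The study also chose genes for PCR from these arrays, and 40 probes of 39 of them were tested here. Of these, 21 rose, 9 fell and 10 did not pass the test. Among those not yet described, *jund*, a subunit of the AP-1 transcription factor, ran from -2.63 to -0.21 in CT fish (median -1.65) and from -0.46 to 0.91 in warmed fish (median 0.16), a 3.59-fold rise (adjusted p = 0.000468). *casp8*, the caspase that starts death-receptor signalling, ran from -1.59 to -0.68 in CT fish (median -1.08) and from -0.13 to 0.78 in warmed fish (median 0.32), a 2.74-fold rise without overlap (adjusted p = 1.65e-05). *apod*, a lipid-carrying apolipoprotein, was widely spread on probe C038R071: CT fish lay between -4.25 and -2.05 and warmed fish between -2.23 and 1.26, and it rose by 2.33 (adjusted p = 0.00356). The other *apod* probe, C056R136, was only 0.45 to 1.04 higher over the alternatives tried.

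The kinase *jak2*, which passes on cytokine signals, rose by 1.09 (adjusted p = 0.0123) and *cul3*, a scaffold of ubiquitin ligases, by 0.63 (0.0138). *rraga*, a GTPase of amino acid sensing, fell by 0.84 (0.00975). Among the 10 that did not pass were the antimicrobial peptide gene *camp-a* at 1.11 (0.184), which was 0.32 in WN and 1.91 in WH fish, the respiratory chain genes *ndufa4* at 1.29 (0.0652) and *ndufa1* at 0.64 (0.0832), and glucokinase, *gck*, at -1.04 (0.259), where 1 CT fish reached 2.59 against a CT median of -0.75. Without the fish of CT tank 3 the *gck* difference was -2.16 (0.0455), and without those of CT tank 4 it was 0.075 (0.966).

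The averaged contrast was fitted to find changes that neither warmed group showed by itself. It called 317 probes that passed the test in neither pairwise contrast (1.33% of probes tested), of which 171 were higher in warmed fish (0.717%) and 146 lower (0.612%). Of the other calls, 706 passed in all 3 contrasts, 363 in WN v CT and the average, and 418 in WH v CT and the average. The 317 were smaller changes: their median size was 0.72 on the log2 scale (1.65-fold, range 0.49 to 1.74), against 0.90 (1.86-fold) for all calls and 1.13 for those of all 3 contrasts.

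The 317 were chosen by these contrasts, and what follows describes them. All 317 had the same sign in WN and in WH fish and an unadjusted p under 0.05 in both, and their adjusted pairwise p-values ran from 0.0501 to 0.234. Their WN and WH changes had median sizes of 0.71 and 0.71, and the gap between WN and WH had a median size of 0.08, against 0.19 over all probes tested. Pooling both groups lowered the standard error to 0.866 of the pairwise one, a ratio that follows from the group sizes. The averaged adjusted p of the 317 had a median of 0.0354, and they were chosen for a value under 0.05. The reverse also occurred: 212 probes were called in a pairwise contrast and lost in the average, with a median gap between WN and WH of 0.55.

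The named genes of this set, 126 over 131 probes (44 higher, 87 lower), were led by *serpinb1*, an inhibitor of neutrophil proteases. Its ratio ran from -2.92 to -0.97 in CT fish (median -1.34) and from -1.99 to 1.11 in warmed fish (median -0.16), so the groups overlapped. It was 1.49 higher in WN fish (adjusted p = 0.0801) and 1.50 in WH fish (adjusted p = 0.0797), and 1.49 ± 0.42 on average (2.82-fold, adjusted p = 0.0298). *mmp9*, the gelatinase that leukocytes carry, ran from -1.66 to -0.86 in CT fish (median -1.21) and from -1.80 to 1.21 in warmed fish (median 0.13). The lowest of all 18 fish was a warmed one, and the differences were 1.15, 1.15 and 1.15 in WN, WH and on average (adjusted p = 0.0843, 0.0853 and 0.0321). Of the leukocyte markers above, 6 probes rose as these genes did while the 6 immunoglobulin probes had no rise, and the part of such cells in these differences was not tested.

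*astl*, an astacin-like protease, was 1.46 higher (adjusted p = 0.0442), with CT fish between -2.19 and -0.65 and warmed fish between -1.60 and 2.55. The highest warmed fish was WN-4, and the next fish of its group was at 0.07. *mea1* was 1.30 higher (adjusted p = 0.0322), *galnt8*, which starts O-linked sugar chains, 1.15 (0.0258), *taf3*, a subunit of the general transcription factor TFIID, 1.14 (0.0239), the receptor kinase *ephb3* 1.10 (0.0173), and the mucin *muc5ac* 1.02 (0.0383). In each of these the lowest warmed fish lay below the highest CT fish.

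The falls were led by *ets2*, a transcription factor. CT fish lay between 0.53 and 1.22 (median 0.68) and warmed fish between -2.15 and 0.40 (median -0.01), without overlap, for a fall of 1.18 (2.27-fold, adjusted p = 0.022). WH-3, at -2.15, stood apart from the next WH fish at -0.19. *h1fx*, a linker histone, fell 2.18-fold (adjusted p = 0.0296), with CT fish between -0.08 and 1.22 and warmed fish between -2.16 and 0.51. LOC106571902, similar to the exchange factor IQSEC1, fell by 1.08 (0.0291). *suclg2*, a subunit of succinyl-CoA ligase, fell by 1.07 (0.0354) and *prdx1* by 1.04 (0.0261). The partner subunit *suclg1* had been called in both pairwise contrasts, with a smaller fall of 0.92 and a tighter spread.

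A second *cyp1a1* probe, C206R091, belonged to this set (-1.03, adjusted p = 0.0277), although C161R028 passed in every contrast. CT fish lay between -1.08 and 0.64 on C206R091, with CT-2 at -1.08 and the next CT fish at 0.18. With slide as a block the difference was -0.58 (adjusted p = 0.0976). *has3*, a hyaluronan synthase, fell by 0.91 (0.0325) and *rdh14*, a retinol dehydrogenase, by 0.89 (0.0269). Of the gene lists, the proteasome had 7 of its 69 probes in the set, the splicing list 7 of 38 and antioxidant defence 5 of 24, against 131 of the 1423 named probes.

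**Figure D5:**
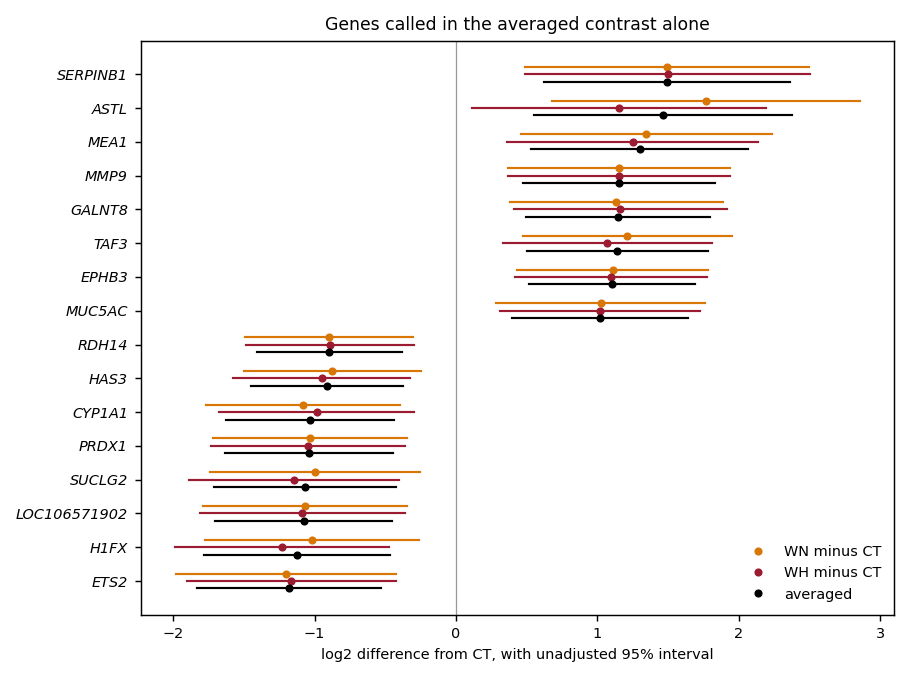
Log2 difference from CT (horizontal) of the 16 named genes called in the averaged contrast alone, for WN (orange), WH (red) and their average (black), each with its 95% interval before adjustment. WN and WH lie close together, as for *mmp9* at 1.15 and 1.15, and the averaged interval is the narrowest of the 3.

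The set was less steady than the other calls. With slide as a block, 1205 probes were called (5.05%) and 77 of the 317 were still among them (24.3%), against 1056 of the 1804 (58.5%). On 6 tank means 1162 probes were called (4.87%; 2.52% in WN v CT and 2.94% in WH v CT), with 64 of the 317 (20.2%) and 1043 of the 1804 (57.8%). All 317 kept their sign in both fits. For the 253 with 18 values, tank means give the same difference as the fish, so that sign could not turn. In the authors' own table of processed values, fitted the same way, 1993 of 17072 probes were called (11.7%), and 266 of 286 probes of the set that the table held were called (93.0%). Of 253 probes of the set with 18 values, 5 had warmed and CT fish that did not overlap. Over all probes with 18 values it was 332 of 18651 (1.78%). On slides A to D, 94.3% to 98.4% of the set differed in the called direction.

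The reference channel moved somewhat with the groups. On CT arrays the reference gave a signal 18.0 to 150 times its background (median 44.5) and on warmed arrays 56.5 to 251 times (median 117), whereas Cy5 gave 28.3 to 62.0 times and 14.0 to 110 times. When each channel was fitted alone, Cy5 gave 1112 calls, of which 941 were shared. Cy3, which should not differ between groups, gave 0 calls by limma (807 probes at an unadjusted p under 0.05). The average intensities were first made alike across arrays, so this fit could not show an array-wide shift of the reference. Among the 1804 calls the median size of the difference was 0.89 in Cy5 and 0.15 in Cy3, and 1802 had the same sign in Cy5 as in the ratio. The Cy3 difference varied among the calls of the averaged contrast alone and among the other calls. In *serpinb1* and *mmp9* it was -0.31 and -0.30, beside Cy5 differences of 1.19 and 0.86, but in *muc5ac* it was -0.01. In *serpinh1* C205R085 and *prdx6* it was -0.03 and -0.05, but in *serpinh1* C236R132 and *dnaja4* it was -0.38 and -0.34. Calls were also fewer without the fish of 1 CT tank: 994 without CT tank 3 and 540 without CT tank 4, with 160 and 92 in the averaged contrast alone.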

How the data were processed

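Liver RNA of 18 fish was hybridized to 44K 2-colour salmon arrays. The authors quantified spots with scanner software, and the deposited scanner files hold the intensity of each spot and its background in both channels with a quality flag. The authors' table of log2 ratios, normalized and filtered by them, was deposited as well and served as an alternative.

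From the spot median intensities, log2 Cy5/Cy3 ratios were computed with limma 3.58.1 (R 4.3.3) by normexp background correction (offset 50) and loess within each array. Of 45220 spots, 1531 were controls and had weight 0 in the loess, and flagged spots (8.93% to 17.3% of an array) were set to missing. The other spots were 43689 probes with 1 spot each. The 23846 probes above background by 2 SDs in at least 1 channel on 14 of 18 arrays (75%) were tested. The fit had 3 groups, and the contrast was the mean of WN and WH minus CT, with Benjamini-Hochberg adjustment over all probes tested. The number of arrays limits the precision. The script was tested on simulated data.

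The members and gene lists were chosen with earlier results of these data known. Named genes were the 8 largest rises and 8 largest falls among called probes with 18 values and no overlap, plus up to 2 unnamed probes each way, the same 8 each way among probes called in the averaged contrast alone (at least 16 values), up to 4 genes of each list, and the study's PCR targets. Genes named beside these were chosen after their values were seen, to describe the lists. Names came from the study's WN list, of which 1493 rows were readable here, and 12 probes were named from its primer tables alone. Of 678 probes with an NCBI gene number, 600 were found in the RefSeq gene table. The number after X in each sample title was taken as the slide. For a slide the image names inside the scanner files differ from that number, and the titles were used. Slides are lettered here, and the fish within a group are numbered as in the labels. Those numbers were not used to pair fish, since same-numbered fish did not deviate together. Alternatives covered background, normalization, filters, flags, slide, tank and each array left out. Some of the PCR targets are not reported here by name.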

Additional observations from a re-analysis of the deposited data

Results flagged for a closer look

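Single fish stood apart from the others of their group with a value in 22 of 578 groups, over the probes whose values are given. The measure was the gap to the nearest fish relative to the group's range. Chance flags about 1 group in 20. CT-2, WH-1 and WH-3 were each picked out on 3 probes, and no array on more. All values are log2 ratios of the fish to the reference pool.

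Among the genes of the non-overlapping set, *serpinh1* C205R085 was at 1.07 in WH-3 against 0.52 in the next WH fish, *rps6kl1* at 1.58 in CT-6 against 0.74, and the unnamed probe C105R014 at 0.88 in WN-3 against -0.28. Each of these fish lay farther from the other temperature than its group did. Among the genes called in the averaged contrast alone, *astl* was at 2.55 in WN-4, *ets2* at -2.15 in WH-3 and *cyp1a1* C206R091 at -1.08 in CT-2.

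Among chaperones, *clu* C082R076 was at 1.39 in WN-2, *hspd1* C126R097 at -1.22 in WN-5, *hsp90ab1* at -0.32 in CT-4, *hsp90aa1* C251R099 at -0.83 in WH-1, *dnajc8* C025R049 at -0.53 in WH-3 and *p4hb* C135R004 at -0.57 in WH-1. In RNA and translation genes, *srpk1* was at 1.35 in WN-3, *sfrs1* at -0.48 in WH-4, *rpl32* at -0.60 in WH-2 and *pabpc4* C056R050 at 0.66 in CT-3. In metabolism, *gapdh* was at 1.64 in WH-1, *prdx5* at 1.46 in CT-2, *sepw1* C155R164 at -0.86 in CT-1 and *ugt2a1* at -0.91 in WN-2. Among cell markers, *fabp1* was at 0.01 (0.00982) in CT-2 and *gfi1b* at 1.05 in WN-4.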

How the results depend on the processing

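The 1804 calls became 913 with median centring in place of loess, 3011 with scale normalization between arrays, 1162 on 6 tank means and, in an alternative added after seeing the data, 1112 in the Cy5 channel alone. The 317 calls of the averaged contrast alone became 778 with scale normalization and 153 in Cy5 alone. Leaving out 1 array at a time gave 1278 (without CT-6) to 1850 calls and 248 to 405 in the averaged contrast alone. Leaving out 1 tank of 3 fish gave 540 (without CT tank 4) to 1578 calls, 994 without CT tank 3, and 92 (without CT tank 4) to 381 in the averaged contrast alone, 160 without CT tank 3. A fit without a CT tank has 3 CT fish, and otherwise the cause of these shifts was not tested. The other background, filter, flag and block alternatives stayed within 1.5 times of both counts (1205 to 2307 calls, 276 to 371 in the averaged contrast alone). The membership of the smaller set moved more than its size: 151 of the 317 were again in it with the authors' values, 129 with the replicate block, 44 with slide as a block, 40 on tank means and 25 with median centring. With the replicate number as a block the counts were 1633 and 340. The numbers do not pair the fish: over 18 same-numbered pairs from different groups, the correlation of deviations ran from -0.11 to 0.12, 2 pairs were over 0.1, and 4 of 18 arrays correlated best with an array of their own number. No named gene or list direction given above turned under the normalization alternatives. With probes detected on all arrays only, 3 list medians turned: sterol synthesis from -0.51 to 0.19 (4 of 8 probes left), erythrocyte markers from -0.61 to 0.14 (4 of 5) and leukocyte markers from 0.14 to -0.52 (11 of 12). Of named probes, 1 changed sign under an alternative: *gck*, not called, was at 0.075 without CT tank 4 and at -2.16 without CT tank 3. Of 19 probes of the non-overlapping set, 14 lost their call under none of them. *ctsh* C031R123, *pttg1*, *rps6kl1* and *stmn1* C181R051 lost it without CT tank 4, and C236R084 with background subtracted to a floor. All 16 genes of the averaged contrast alone lost theirs under at least 1 alternative.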
